A study of Vitis vinifera with 24 samples.

Results

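The comparison described here sets leaves given trehalose together with PEG6000 against untreated leaves of the grapevine cultivar 'Thompson Seedless', so it measures what remains of both treatments at the time of sampling. The 3 libraries labelled Tre+PEG6000 and the 3 control libraries were chosen by their labels alone, 6 of the 24 RNA-seq libraries of the series. Leaves came from self-rooted cuttings kept in a greenhouse, and all treated leaves were taken at 48 h. Control leaves carry no time in the labels, and no group has a stated dose, order of application or batch. For comparison the text uses the 3 libraries of leaves given trehalose (Tre), the 3 of leaves given PEG6000 and, at a few points, those given NaCl or kept at 4 ℃ with and without trehalose. No genotype differs between groups, and the labels call the replicates biological without saying whether they were separate plants.

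Polyethylene glycol of this size does not enter plant cells readily and lowers the water potential outside them, so it is widely used to imitate drought. Plants meet such osmotic stress through abscisic acid signalling, closure of stomata and accumulation of compatible solutes and protective proteins, and leaves reduce photosynthesis and growth. Trehalose is a stable sugar that protects membranes and proteins in many organisms. In most flowering plants it is present in traces, and its precursor trehalose 6-phosphate acts as a signal of sucrose status.

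Expression was deposited as FPKM, fragments scaled to transcript length and to the mapped fragments of the library, so levels can be compared between genes and depth is unknown. The genes carry identifiers without names or functions in the sources used here, so pathways and leaf cell types could not be checked, and genes are described by their behaviour with at most 2 rising and 2 falling identifiers per comparison. In bulk leaf RNA fewer cells of a type and less RNA per cell cannot be told apart. Pearson correlations of log2(FPKM + 1) over the genes tested were 0.994 to 0.996 among the Tre+PEG6000 libraries and 0.996 to 0.997 among controls. Between Tre+PEG6000 and control libraries they were 0.949 to 0.950, against 0.869 to 0.874 between Tre+PEG6000 and PEG6000 libraries and 0.957 to 0.960 between Tre+PEG6000 and Tre libraries.

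Leaves given trehalose with PEG6000 differed from control leaves mainly by genes that were higher. At least 2-fold differences, meaning an absolute difference of at least 1 in log2(FPKM + 1), were called for 1910 genes that rose (9.52% of the 20053 genes tested) and for 156 that fell (0.778%). A call is a limma test with a Benjamini-Hochberg adjusted p below 0.05. The surplus of raised genes kept its direction under every scaling tried, but its size did not: 1427 rose and 333 fell with median-of-ratios scaling, and 1089 rose and 412 fell with quantile normalization. Without a limit on size, 10174 genes (50.7%) were called higher and 3580 (17.9%) lower. That split depended on the scaling, with 6953 higher and 6215 lower after scaling by median-of-ratios factors and 5952 and 7903 for quantile normalization. The median log2 difference of all genes was 0.17, and it moved to 0.02 and -0.06 under these scalings.

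Most called differences were small. Of the genes called higher, 60.6% differed by less than 1.5-fold, 223 by 4-fold to 8-fold and 45 by 8-fold or more. Of those called lower, 75.2% differed by less than 1.5-fold, 22 by 4-fold to 8-fold and 2 by 8-fold or more. In 10141 genes (50.6%) all 3 Tre+PEG6000 libraries lay above all 3 control libraries, and in 3691 (18.4%) all lay below. The median standard error of a difference was 0.07 on the log2 scale. The spread of the differences, as their root mean square, was 0.64, against 1.10 for PEG6000 and 0.27 for Tre, which were measured against the same control libraries.

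**Figure D1:**
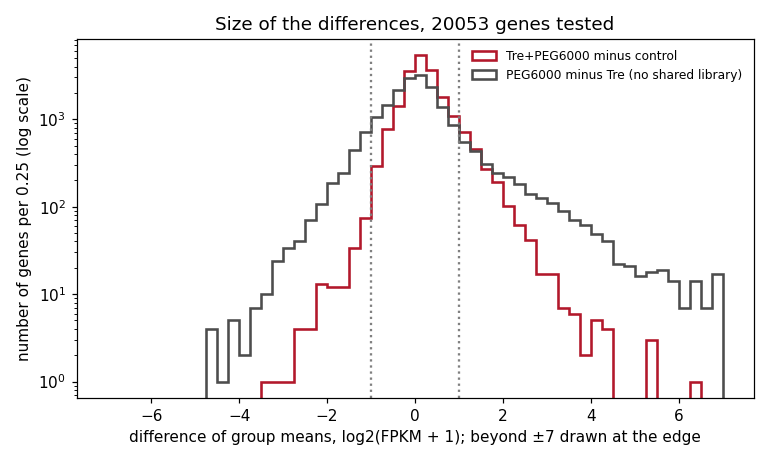
Number of genes (log scale) by the log2(FPKM + 1) difference of group means for Tre+PEG6000 minus control and for PEG6000 minus Tre, which share no library; dotted lines mark a 2-fold difference. The Tre+PEG6000 curve reaches past 2-fold mostly on the higher side, 1910 genes against 156. The curve of PEG6000 minus Tre is broad on both sides, 2775 against 1889, and holds any trehalose effect with opposite sign. For PEG6000 against control, not drawn, the counts were 2882 and 1546.

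The number of genes detected was also higher. At 1 FPKM or more, 18215, 18386 and 18331 genes were found in the Tre+PEG6000 libraries and 16953, 16985 and 16973 in the controls. These groups did not overlap, and with 3 libraries against 3 an exact permutation test cannot go below a two-sided p of 0.1. The Tre+PEG6000 mean of 18310.7 was the highest of the 8 groups, ahead of 17783.3 in NaCl leaves. The 10 most abundant genes of a library held 10.6 ± 0.12% of its FPKM in Tre+PEG6000 leaves (SD, n = 3) and 14.5 ± 0.03% in control leaves. The sum of FPKM was 604450 ± 9277 in Tre+PEG6000 leaves and 631198 ± 5687 in control leaves.

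The gene with the largest rise was low in control, Tre and PEG6000 leaves and high in the combination. Vitvi07g02362 was at 2.01, 1.9 and 2.31 FPKM in the control libraries and at 264, 279 and 278 FPKM in the Tre+PEG6000 libraries, a log2 difference of 6.48 (SE 0.07). Its means were 1.37 FPKM in PEG6000 leaves and 4.42 FPKM in Tre leaves. The next highest group was 4 ℃, where its 3 libraries held 79.6 to 86.7 FPKM, so all Tre+PEG6000 libraries lay above every other library of the series.

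The gene with the second largest rise instead followed PEG6000. Vitvi01g04178 was at 10.9, 11.5 and 12.2 FPKM in control and at 519, 552 and 553 FPKM in Tre+PEG6000 leaves, a log2 difference of 5.43 (SE 0.04). PEG6000 leaves were higher still, at 752, 755 and 738 FPKM, and Tre leaves lay between 13.9 and 15.5 FPKM. NaCl leaves reached 186 ± 3.4 FPKM (SD, n = 3) and leaves given trehalose with NaCl 52.8 ± 2.0 FPKM, so every stressed group exceeded control.

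Both genes with the largest fall were lower in the combination than in every other group. Vitvi01g00456 fell from 23.5, 22.6 and 23.0 FPKM in control to 1.36, 1.41 and 1.45 FPKM in Tre+PEG6000 leaves, a log2 difference of -3.32 (SE 0.06). In PEG6000 leaves it was at 23.7, 22.9 and 23.6 FPKM, and its test of PEG6000 against control gave an adjusted p of 0.704 in limma. Vitvi09g00308 fell from 36.5, 33.1 and 36.8 FPKM to 3.34, 3.21 and 2.42 FPKM (log2 difference -3.20, SE 0.07), with 21.3 ± 0.26 FPKM in PEG6000 leaves (SD, n = 3). For both genes the next lowest group was 4 ℃, at 6.18 ± 0.30 and 7.19 ± 0.44 FPKM. The adjusted p of these 4 genes was at most 3.33e-21 in limma.

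**Figure D2:**
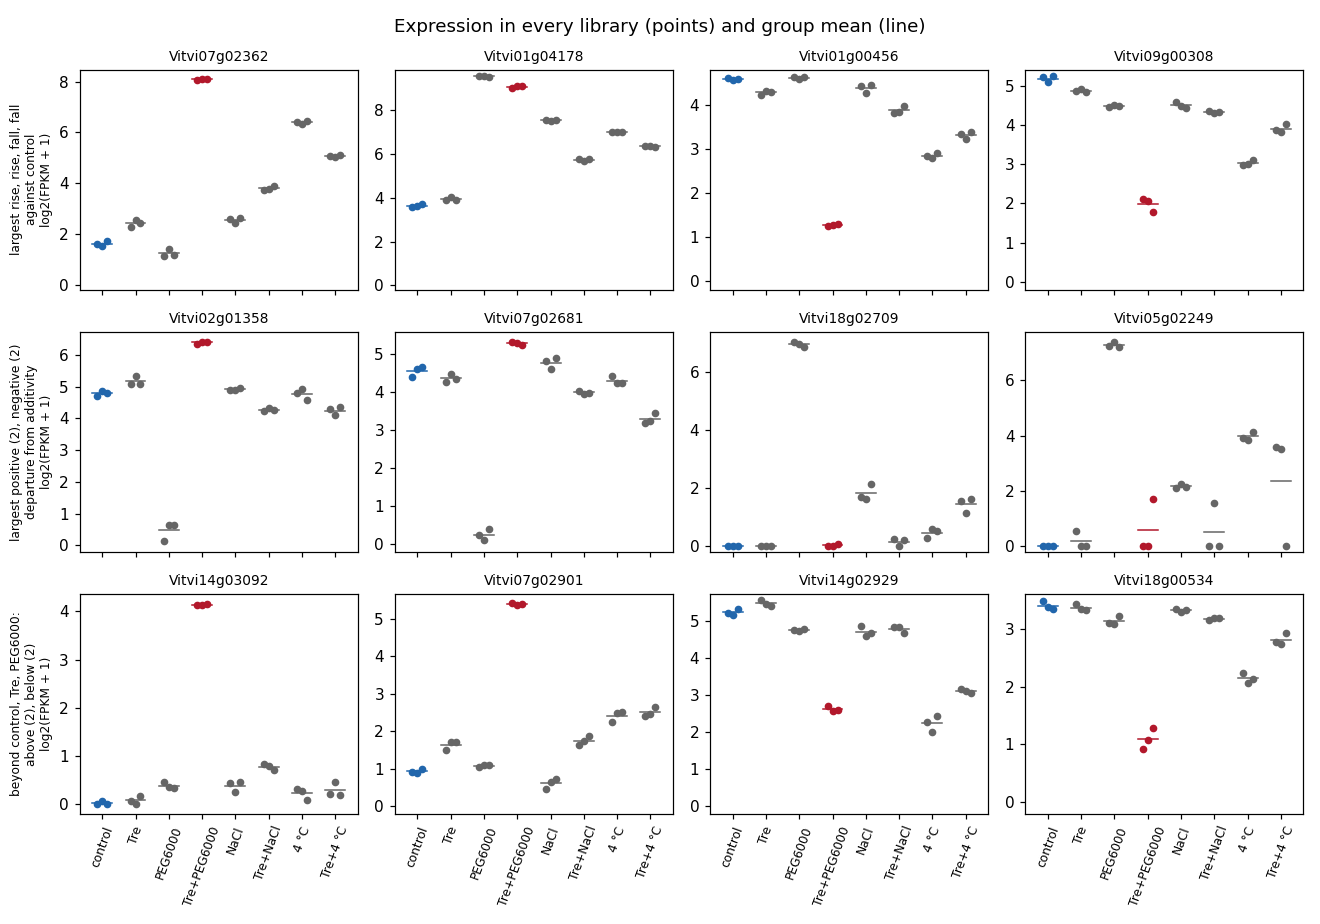
Level in every library (points) and group mean (lines), as log2(FPKM + 1), of the 12 genes named in the text across the 8 groups; control is blue and Tre+PEG6000 red. In the top row the first and the last 2 genes have Tre+PEG6000 libraries outside all others, whereas Vitvi01g04178 is highest in PEG6000 leaves.

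Among the 20 genes with the largest rise whose higher group averaged 5 FPKM or more, log2 differences ran from 3.59 to 6.48. Their median level was 1.95 FPKM in control, 3.33 FPKM in Tre, 61.2 FPKM in PEG6000 and 58.8 FPKM in Tre+PEG6000 leaves. By direct tests against PEG6000, 7 of the 20 were higher, 10 lower and 3 not called, and all 20 were higher than in Tre leaves. Over all genes 43.6% were called higher and 32.9% lower than in PEG6000 leaves, and 48.0% higher than in Tre leaves. These genes were ranked by the same Tre+PEG6000 libraries, so their counts are descriptions. Among the 20 genes with the largest fall, differences ran from -3.32 to -2.12. Their median level was 32.7 FPKM in control, 20.1 FPKM in Tre, 9.70 FPKM in PEG6000 and 4.10 FPKM in Tre+PEG6000 leaves, with 18 of the 20 called lower than in PEG6000 leaves. Tre+PEG6000 had the lowest mean of all 8 groups for 15 of these falling genes and the highest mean for 9 of the rising ones. The falling genes too were ranked by the Tre+PEG6000 libraries, and no share over all genes is given here for the lowest or highest mean. These counts are therefore descriptions as well.

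Full switches were few. A set of 7 genes went from under 1 FPKM in all 3 controls to 10 FPKM or above in all 3 Tre+PEG6000 libraries, with means of 11.4 to 23.7 FPKM, and 0 genes did the reverse. Of these 7 genes, 2 also reached 10 FPKM in all 3 PEG6000 libraries and 0 did so in Tre leaves.

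The share of raised genes varied with level. The 1910 raised genes had a median of 2.00 FPKM in control and 8.14 FPKM in Tre+PEG6000 leaves, and the 156 lowered genes one of 19.8 and 6.05 FPKM. No median over all genes is given here. By mean level over all libraries, 9.48% of genes below 1 FPKM, 13.2% at 1 to 3 and 10.9% at 3 to 10 FPKM were raised. At 10 to 30, 30 to 100 and 100 FPKM or more the shares were 7.52, 6.85 and 7.58%, beside 9.52% of all genes. From the lowest to the highest class, 0.152, 0.685, 0.642, 0.665, 1.49 and 1.81% were lowered. Shares by level were not computed with another pseudocount, and a pseudocount of 1 understates the change of low genes. The raised genes held 2.19, 2.23 and 2.22% of the FPKM in the control libraries and 8.14, 7.95 and 8.04% in the Tre+PEG6000 libraries. In PEG6000 leaves, which were not used to choose them, the same genes held 11.8 ± 0.06% (SD, n = 3), in Tre leaves 2.95 ± 0.04% and at 4 ℃ 9.41 ± 0.01%. The lowered genes held 1.80 ± 0.02% in control, 0.752 ± 0.015% in Tre+PEG6000 and 1.00 ± 0.005% in PEG6000 leaves.

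**Figure D3:**
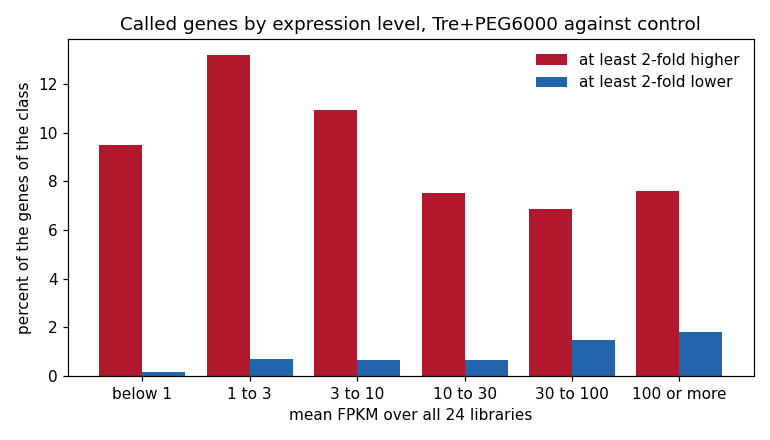
Percent of genes called at least 2-fold higher (red) or lower (blue) in Tre+PEG6000 than in control leaves, by mean FPKM over the 24 libraries. The share of raised genes is highest at 1 to 3 FPKM, 13.2%, and exceeds that of lowered genes in every class. These shares are for a pseudocount of 1, which understates the change of low genes.

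The most abundant transcripts moved the other way. Of the 100 genes with the highest control levels, 599 FPKM and above, 85 were called lower and 12 higher, against 17.9 and 50.7% of all genes. Their median log2 difference was -0.49, and 3 were at least 2-fold lower and 1 at least 2-fold higher. Together they held 35.9% of the FPKM in control and 27.8% in Tre+PEG6000 leaves. Since they were ranked by their level in the control libraries, which enter the difference, their shift is a description.

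Raised genes were spread over the identifiers. The digits after Vitvi give a number from 00 to 19. The share of raised genes ran from 6.71% at number 00 to 13.0% at number 16, with 12.7% at number 10 and 7.10% at number 15. PT_newGene identifiers, 475 of the genes tested, held 50 raised (10.5%) and 2 lowered genes, close to the 9.50% raised among Vitvi identifiers.

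Genes that differed between PEG6000 and Tre leaves can be followed into the combination without reusing libraries. PEG6000 leaves set against Tre leaves share no library with Tre+PEG6000 set against control, although an effect of trehalose enters the pair with opposite signs. In PEG6000 against Tre, 2775 genes were at least 2-fold higher (13.8% of those tested) and 1889 at least 2-fold lower (9.42%). Of the 2775 higher genes, 2279 (82.1%) were also called higher in Tre+PEG6000 than in control, where 50.7% of all genes were, and 83 (2.99%) were called lower. Their median log2 difference was 0.66 in Tre+PEG6000 against control, 0.48 above that of all genes, and 1.86 in PEG6000 against Tre. At 2-fold, 860 of them (31.0%) were raised in the combination, against 9.52% of all genes. With quantile normalization 517 of 2375 (21.8%) were raised, against 5.43% of all genes.

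Genes lower under PEG6000 than under trehalose were divided in the combination. Of these 1889 genes, 912 (48.3%) were called higher in Tre+PEG6000 than in control and 696 (36.8%) lower, against 50.7 and 17.9% of all genes. The order of these counts turned with the scaling, under which the set was chosen anew. Of 1981 such genes with median-of-ratios factors, 741 were higher and 887 lower. Of 2414 with quantile normalization, 793 were higher and 1191 lower. The median log2 difference of the 1889 genes was 0.14 in Tre+PEG6000 against control, 0.03 below that of all genes (-0.03 relative to it). In PEG6000 against Tre it was -1.36. At 2-fold 74 of them (3.92%) were lowered in the combination and 282 (14.9%) were raised, against 0.778 and 9.52% of all genes. With quantile normalization 223 of the 2414 were raised and 200 lowered, where 1089 of all genes rose and 412 fell. In 992 of the 1889 genes (52.5%) the difference from control was under 1.5-fold.

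**Figure D4:**
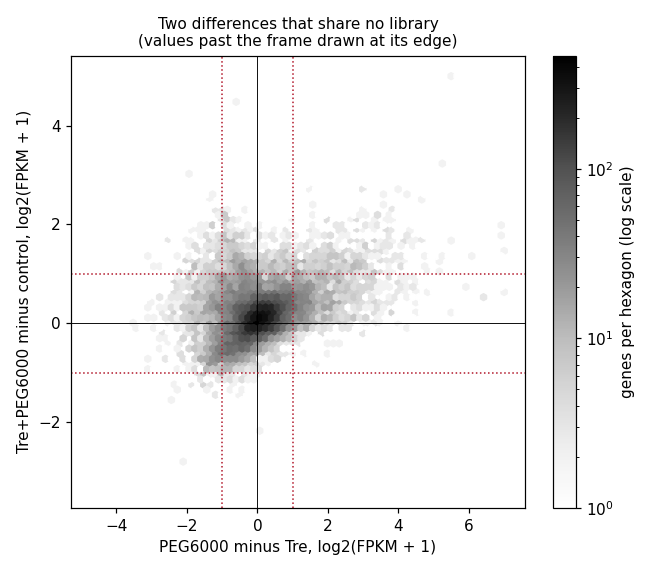
For each gene tested, the log2(FPKM + 1) difference of PEG6000 minus Tre (x axis) and of Tre+PEG6000 minus control (y axis), 2 differences without a shared library; shading gives the number of genes per hexagon and dotted lines mark 2-fold. Genes high on the x axis lie mostly above 0 on the y axis (median 0.66), while genes low on the x axis lie on both sides of it (median 0.14).

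The 1910 genes raised in the combination were called higher in PEG6000 than in Tre leaves more often than all genes, in 1079 cases (56.5%) against 41.9%. Without a limit on size they were called lower in 700 cases (36.6%), close to the 36.5% of all genes. At 2-fold, 860 (45.0%) were higher and 282 (14.8%) lower, against 13.8 and 9.42% of all genes. Of the 156 lowered genes, 13 (8.33%) were higher and 125 (80.1%) lower in PEG6000 than in Tre leaves. In NaCl against Tre, 996 raised genes (52.1%) were called higher and 641 (33.6%) lower, with 46.2 and 21.3% of all genes. In leaves given trehalose with NaCl against Tre the shares were 38.9 and 30.6%, with 33.4 and 16.1% of all genes, and the median log2 difference of the raised genes was 0.06 where that of all genes was 0.07. At 4 ℃ against Tre, 46.6% were higher and 41.3% lower, where 30.9 and 53.5% of all genes were.

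A direct test between Tre+PEG6000 and PEG6000 leaves placed each of the 1910 raised genes below or above its PEG6000 level. Of the raised genes, 735 (38.5%) were lower in the combination than in PEG6000 leaves, 115 (6.02%) were not called, and 1060 (55.5%) were higher, beside 32.9% lower and 43.6% higher among all genes. The order of the first and last counts turned with a filter: of the genes with a mean of at least 5 FPKM, 554 raised genes were lower and 390 higher than in PEG6000 leaves. That mean is over all 24 libraries and includes those of PEG6000, so genes high in PEG6000 leaves pass more easily. A dependence on level was not tested apart from this. Both tests use the same Tre+PEG6000 libraries, so a chance deviation of these would enter both.

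The classes were defined by the PEG6000 and Tre+PEG6000 libraries. Which of these groups is higher in a class was therefore fixed, and the levels below are descriptions. The 735 raised genes that stayed short of PEG6000 had a median of 2.55 FPKM in control, 2.62 FPKM in Tre, 32.6 FPKM in PEG6000 and 9.89 FPKM in Tre+PEG6000 leaves. The 1060 that exceeded PEG6000 had 1.71 FPKM in control and 1.82 FPKM in PEG6000 leaves, with 3.26 FPKM in Tre and 7.44 FPKM in Tre+PEG6000 leaves. Of these 1060 genes, 1003 were called higher than in Tre leaves too, 417 of them at least 2-fold. Among all genes 48.0% were called higher in that comparison and 6.17% at least 2-fold. The 1060 genes were chosen for high values in the same Tre+PEG6000 libraries, so these counts are descriptions. Among the 156 lowered genes, 55 (35.3%) were higher than in PEG6000 leaves, 20 (12.8%) were not called and 81 (51.9%) were lower. Beside them, 43.6% of all genes were higher and 32.9% lower. The lowered genes were likewise chosen by the same Tre+PEG6000 libraries. Without Tre+PEG6000 replicate 1 the number of lowered genes not called was 31. At a mean of at least 5 FPKM, 51 lowered genes were higher and 51 lower than in PEG6000 leaves.

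**Figure D5:**
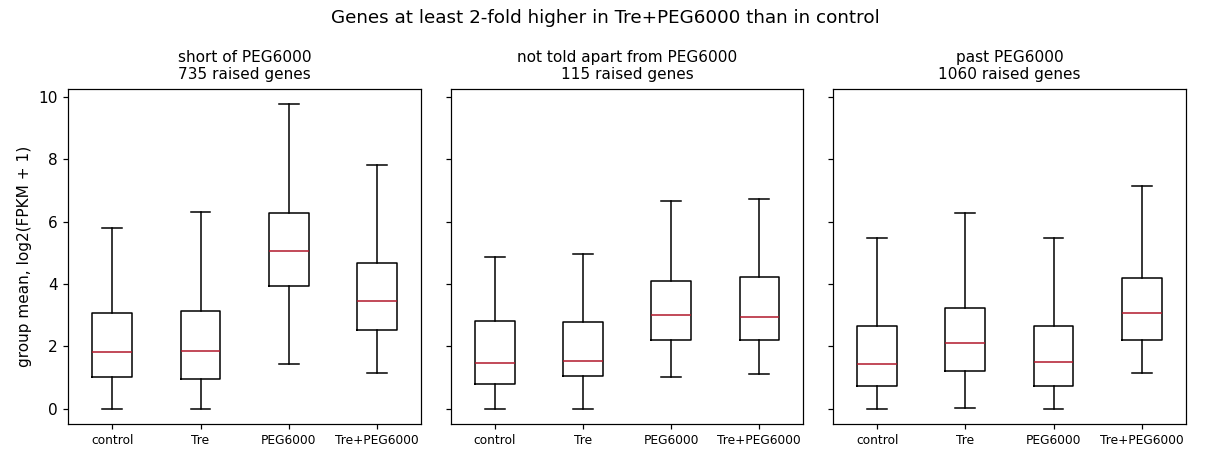
Group means, as log2(FPKM + 1), of the 1910 raised genes in control, Tre, PEG6000 and Tre+PEG6000 leaves, by whether the combination was below, not called against or above PEG6000; boxes span the quartiles with the median in red, and whiskers reach 1.5 box lengths. The PEG6000 and Tre+PEG6000 libraries shown defined the classes. In PEG6000 leaves the 735 genes on the left have a median of 32.6 FPKM and the 1060 on the right one of 1.82 FPKM.

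Some genes reached a level that neither single treatment showed. In Tre+PEG6000 leaves 265 genes (1.32% of those tested) were called at least 2-fold higher than in control, in Tre and in PEG6000 leaves alike. At least 2-fold lower than in all 3 were 28 genes (0.140%). Over all genes, 6.17% were 2-fold higher and 0.753% 2-fold lower than in Tre leaves, and 10.9 and 8.70% than in PEG6000 leaves. The 265 genes had a median of 1.43 FPKM in control, 2.23 in Tre, 1.21 in PEG6000 and 9.26 FPKM in Tre+PEG6000 leaves, and 9 of them reached 100 FPKM. In 231 of the 265 (87.2%) every Tre+PEG6000 library was also above every library of the NaCl and 4 ℃ groups with and without trehalose, as in 18.8% of all genes. The 28 lower genes had a median of 8.54 FPKM in control and 1.0 FPKM in Tre+PEG6000 leaves, and for 20 of them every Tre+PEG6000 library was also below every library of those 4 groups, as in 4.61% of all genes. Both sets were chosen for their values in the same Tre+PEG6000 libraries, so these 2 counts are descriptions. The excess of higher over lower genes held with median-of-ratios scaling (182 and 33) and quantile normalization (157 and 39).

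Ranked by the smallest of the 3 differences, and after the genes already named, the first above all 3 references was Vitvi14g03092. It was listed at 0 in 2 control libraries and at 0.0540 FPKM in the other, and it was at 16.5, 16.6 and 16.8 FPKM in the Tre+PEG6000 libraries (log2 difference 4.12, SE 0.08). No other group exceeded 0.791 FPKM in any library. Vitvi07g02901 was at 0.872, 0.840 and 1.01 FPKM in control and at 41.9, 40.3 and 41.2 FPKM in Tre+PEG6000 leaves (4.47, SE 0.09), with at most 5.27 FPKM in any library of the other groups. Both genes thus stood clear of all other libraries.

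Below all 3 references, Vitvi14g02929 went from 36.6, 34.9 and 38.9 FPKM in control to 5.59, 4.94 and 5.07 FPKM in Tre+PEG6000 leaves (-2.61, SE 0.08). This gene was lower still at 4 ℃, at 3.77 ± 0.72 FPKM (SD, n = 3), so its low level was not particular to the combination. Vitvi18g00534 went from 10.1, 9.43 and 9.19 FPKM to 0.901, 1.11 and 1.42 FPKM (-2.31, SE 0.07), below the 3.43 ± 0.25 FPKM at 4 ℃. In limma the adjusted p against control was at most 4.10e-18 for these 4 genes.

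For 67.5% of the genes tested, the separate effects of trehalose and PEG6000 did not add up to the combined effect on the log2 scale. The departure from additivity, the difference of Tre+PEG6000 from Tre minus that of PEG6000 from control, was called positive for 7673 genes (38.3%) and negative for 5856 (29.2%) in limma, with a median of 0.09. With median-of-ratios scaling 6455 were positive and 6731 negative, so the order of these counts depended on the scaling. At 2-fold 1586 genes (7.91%) were positive and 1778 (8.87%) negative.

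The 2 largest positive departures among genes not yet named belonged to genes almost lost under PEG6000 alone. Vitvi02g01358 was at 25.4, 28.0 and 26.8 FPKM in control, at 0.112, 0.558 and 0.553 FPKM in PEG6000 and at 81.0, 84.6 and 83.9 FPKM in Tre+PEG6000 leaves. Vitvi07g02681 was at 22.5 ± 2.3 FPKM in control, 0.191 ± 0.11 FPKM in PEG6000 and 38.1 ± 1.3 FPKM in Tre+PEG6000 leaves (SD, n = 3). Both ended above control in the combination, by log2 differences of 1.60 (SE 0.10) and 0.74 (SE 0.09), where the sum of the separate effects was -3.93 and -4.49.

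The 2 largest negative departures were genes present under PEG6000 and back near 0 in the combination. Vitvi18g02709 was listed at 0 in every control and Tre library, at 129, 123 and 116 FPKM in PEG6000 leaves, and 1 Tre+PEG6000 library held 0.0600 FPKM, with 0 listed in the other two. Vitvi05g02249 was listed at 0 in every control library and at 151, 167 and 149 FPKM in PEG6000 leaves. Of the Tre+PEG6000 libraries 1 held 2.31 FPKM, and the other two list it at 0. Against control neither was called in the combination, with adjusted p of 0.849 and 0.415 in limma.

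Set against leaves given trehalose with NaCl, Tre+PEG6000 leaves also held more genes that were higher. At 2-fold, 1235 genes (6.16%) were higher and 184 (0.918%) lower, and at least 878 were higher and at most 303 lower under the other scalings. Against Tre leaves 1238 genes were higher and 151 lower, with 780 and 300 after quantile normalization. Against leaves given trehalose at 4 ℃ the counts were 3518 (17.5%) and 1653 (8.24%), but their order turned with the scaling, to 2014 higher and 2385 lower with median-of-ratios factors and 2023 and 2221 with quantile normalization.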

How the data were processed

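RNA from leaves of 24 samples was sequenced, and the values used are FPKM per gene and sample, deposited by the authors with 1 column for each replicate. Tools in the submitters' processing notes are StringTie 2.1.3b, SAMtools 1.9, HISAT2 2.1.0 and fastp 0.20.0, with no role stated. The genome build, the annotation and strandedness are not given there, so near-identical, overlapping or antisense genes may share reads. Depth is unknown: among 1911 genes below 0.2 FPKM in 2 control libraries, no 2% window held over 1.99% of the ratios, so no whole reads were recovered and no count test was run. Of 35840 identifiers, 0 matched the gene table of the reference assembly.

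Each column was assigned by its name, with 0 left unused. Genes reaching 1 FPKM in 3 or more libraries entered the tests (20053). Differences are on the log2(FPKM + 1) scale, with a pseudocount of 1, which understates the change of low genes. Tests used limma 3.58.1 in R 4.3.3 (1 mean for each of 8 groups, 16 residual degrees of freedom, variance trend), two-sided, with Benjamini-Hochberg adjustment within each of 13 comparisons. These p-values rest on the spread among the 3 samples of a group, which may be technical. The limma step was tested on simulated data. Named genes were called, averaged 5 FPKM or more in the higher group, had replicates that did not overlap, and were the first 2 per direction and comparison that had not been named before. The comparison, sets and rules were chosen with earlier results of these data known. Alternatives covered pseudocount, filter, scaling, variance model, samples in the fit, replicate block and leaving out each library. Figures used Python 3.11.15 and matplotlib 3.10.9.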

Additional observations from a re-analysis of the deposited data

Results flagged for a closer look

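The effect of PEG6000 differed between leaves with and without trehalose, by the limma test of the departure from additivity, for 7673 genes in the positive and 5856 in the negative direction. The largest positive departures among genes not named earlier were 5.54 on the log2 scale for Vitvi02g01358 (SE 0.14) and 5.23 for Vitvi07g02681 (SE 0.12), with a limma adjusted p of at most 7.7e-20. In both genes all 3 Tre+PEG6000 libraries lay above all control, Tre and PEG6000 libraries. The largest negative departures were -6.92 for Vitvi18g02709 (SE 0.17) and -6.89 for Vitvi05g02249 (SE 0.86), with a limma adjusted p of at most 1.97e-07. In both genes all 3 PEG6000 libraries lay above all libraries of the other 3 groups. Departures of genes listed at 0 in whole groups depend on the pseudocount and are no bounds.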

How the results depend on the processing

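With pseudocounts of 0.1 and 0.01, 3132 and 3268 genes rose and 288 and 303 fell against control. Raised genes were below PEG6000 in 1219 and 1263 cases and not called in 349 and 468. Lowered genes were above PEG6000 in 90 and 92, not called in 57 and 60, and below it in 141 and 151. In PEG6000 against Tre, 1767 and 1873 raised genes were higher, 42 and 50 lowered genes higher, and 200 and 200 lowered genes lower. Of the genes 2-fold lower in PEG6000 than in Tre leaves, 1439 and 1423 were higher than control in the combination. Genes above and below control, Tre and PEG6000 alike numbered 591 and 58, and 576 and 68, and the median difference of all genes was 0.22 (0.2168 and 0.2232).

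When only genes averaging 5 FPKM or more were tested, which leaves fewer genes, 6589 genes were called higher, 1002 at 2-fold, and 5093 departed positively from additivity. Of raised genes 58 were not called against PEG6000, 390 were above it and 231 were lower in PEG6000 than in Tre; of lowered genes 12 were not called and 51 were below it. Genes higher and lower in PEG6000 than in Tre leaves were higher than control in the combination in 1518 and 526 cases, 90 and 14 genes lay above and below all 3 references, and the median was 0.14. Without a filter the median was 0.074, and with TPM-like scaling 0.22.

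With median-of-ratios scaling and quantile normalization, 6215 and 7903 genes were called lower, 333 and 412 at 2-fold, with medians of 0.0158 and -0.0639. Lowered genes were above PEG6000 in 130 and 145 cases, not called in 61 and 94, and below it in 142 and 173. In PEG6000 against Tre, 25 and 29 of them were higher and 282 and 350 lower. Of genes higher in PEG6000 than in Tre leaves, 126 and 188 were lower than control in the combination. Quantile normalization also gave 5952 genes higher, 1089 at 2-fold, 437, 64 and 588 raised genes below, not called against and above PEG6000, 625 and 409 raised genes higher and lower in PEG6000 than in Tre, 1191 genes lower in PEG6000 than in Tre leaves that were lower than control, and 157 genes above all 3 references. The cause of these changes was not tested.

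Same-numbered replicates of control, Tre, PEG6000 and Tre+PEG6000 did not deviate together (correlations from -0.09 to 0.04), so the numbers were not taken to pair samples. With the replicate number as a block, 10153 genes were higher and 3580 lower than control. Leaving out each of 12 libraries gave 1883 to 1946 raised and 155 to 171 lowered genes, and 20 to 31 lowered genes not called against PEG6000, the highest without Tre+PEG6000 replicate 1. The 12 named genes kept direction and call in 263 of 263 refits, but they were chosen for large differences in these same data. Genes named for lying beyond control, Tre and PEG6000 alike were refitted only against control. Of the named genes, 1 could not be fitted when genes had to average 5 FPKM.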
